A study of Homo sapiens with 32 samples.

Results

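The nucleoporin genes are 31 human genes that encode the proteins of the nuclear pore complex, out of 64486 genes in the annotation. They were chosen by name and not by any measured value, and their tags were counted on the strand of each gene between its annotated start and end, in exons and in introns. The study asked by iCLIP where 3 mRNA export factors contact RNA in human embryonic kidney cells with a FlpIn docking site for a transgene, which the sample labels call HEK293T and the study's protocol calls FlpIn-293. iCLIP fixes protein to RNA with UV light, recovers the protein with an antibody and reads the base at which reverse transcription stopped, so that 1 tag is 1 deduplicated cDNA ending at 1 crosslinked base. The 32 sequencing runs were merged by the authors into 12 libraries, which fell into 4 groups of 3, all made with an anti-FLAG antibody. Alyref libraries came from a stable line with an inducible Alyref-FLAG transgene and Chtop libraries from one with Chtop-FLAG, both given tetracycline at 10 ng/mL for 48 h, and Nxf1 libraries came from an Nxf1-FLAG line given 5 ng/mL for 48 h. Control libraries came from cells with an empty FLAG construct, for which the labels state no tetracycline dose. The tagged proteins were made in addition to the untagged ones of the cell, so the tags report the tagged proteins and not the endogenous ones. No source used here says whether the 3 libraries of a group came from separate cultures, and p-values therefore measure the spread between these libraries, which may be technical.

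The nuclear pore complex is the gate between nucleus and cytoplasm. A scaffold built of Y-shaped complexes and inner ring proteins is anchored to the nuclear envelope by membrane proteins, its channel is filled by disordered phenylalanine-glycine (FG) repeats, filaments reach into the cytoplasm, and a basket hangs into the nucleus. Alyref and Chtop are adaptors of TREX, the complex that prepares mRNA for export, and Nxf1 is the receptor that carries mRNA across the FG repeats. The transcripts of the pore's own genes pass through the same gate, and contacts with the export factors can be followed along them by exon and intron.

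Depth set what could be seen. Libraries held 7017 to 631704 tags, with the first replicate the shallowest in each group. The members took 6920 tags in Alyref, 4497 in Chtop, 879 in Nxf1 and 254 in Control. Of the 31 members, 30 had a tag in each Alyref library, whereas the shallowest Nxf1 library, of 8134 tags, reached 15 and the shallowest Control library, of 7017 tags, reached 20. No tags in those 2 libraries still allowed up to 369 and 428 CPM, respectively, as counting error alone, where CPM is tags per 1000000 tags of the library. Levels below are CPM unless exonic length is named. A level depends on how much of the RNA a cell holds as well as on how often the factor touches it, and these cannot be told apart because RNA levels were not measured in these libraries.

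Crosslinked bases in the members seldom recurred. Among 11605 distinct bases, 701 were hit in more than 1 of the 12 libraries, and no member base held more than 6 tags in any group. The sequences printed next are among the bases with most tags in a group, shown because they separate bases hit in more than 1 library from bases stacked in 1 library. Each is 21 bases of GRCh37/hg19 on the gene strand, 5′ to 3′, with the crosslinked base in capitals and 10 bases on either side.

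NUP155 exon 23, coding, chr5:37310696-37310716, minus strand: agtttacattTacaggatatc
NUP155 exon 5, coding, chr5:37352915-37352935, minus strand: ttaggcatctTtcaacctcat
NUP43 exon 1, 5′ UTR, chr6:150067654-150067674, minus strand: actgtgcttgCtttttgcagt
NUP155 exon 1, 5′ UTR, chr5:37371075-37371095, minus strand: gtctacgattTccgagatgcc
NUP153 exon 18, coding, chr6:17629175-17629195, minus strand: aaaggaggatTctcttttggc
NUP58, exon of another isoform, chr13:25910103-25910123, plus strand: tgcttagtttTaaaaaaaaaa
POM121, intron, chr7:72371425-72371445, plus strand: agattcttaaGtttttttttt

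Both coding bases of NUP155, an inner ring scaffold protein, held 1 tag in each of the 3 Alyref libraries and none elsewhere. The NUP43 base, the second of the canonical transcript, held 2 tags in each of the 2 deeper Alyref libraries. The base in the first exon of NUP155 held 3 tags from 2 Chtop libraries and 1 from Alyref, and the base in exon 18 of NUP153, a basket protein, held 1 tag in each of the 2 deeper Nxf1 libraries and 1 in Alyref. By contrast, the 5 tags at the NUP58 base all came from Chtop 3 and the 6 tags at the POM121 base all came from Nxf1 3, and each of these bases stands before an unbroken run of A or of T. The crosslinked base of member tags was a T in the genome, a uridine in the RNA, in 53.9% to 57.2% of tags in Alyref, 52.1% to 59.4% in Chtop, 34.4% to 57.1% in Nxf1 and 44.7% to 61.5% in Control.

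As a set, the nucleoporin genes took 0.521% ± 0.033 (SD, n = 3) of all tags in Alyref, 0.401% ± 0.083 in Chtop, 0.331% ± 0.094 in Nxf1 and 0.347% ± 0.184 in Control. By library the share was 0.509%, 0.558% and 0.494% in Alyref and 0.310%, 0.473% and 0.420% in Chtop, so each Alyref library lay above each Chtop library. It was 0.393%, 0.376% and 0.223% in Nxf1 and 0.542%, 0.324% and 0.176% in Control. Control libraries ranged more widely than those of any factor, and the shallowest of them, with 38 member tags, had a 95% Wilson interval of 0.395% to 0.742%. The members were chosen with earlier results known, and the share is given as a description with no test.

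**Figure D1:**
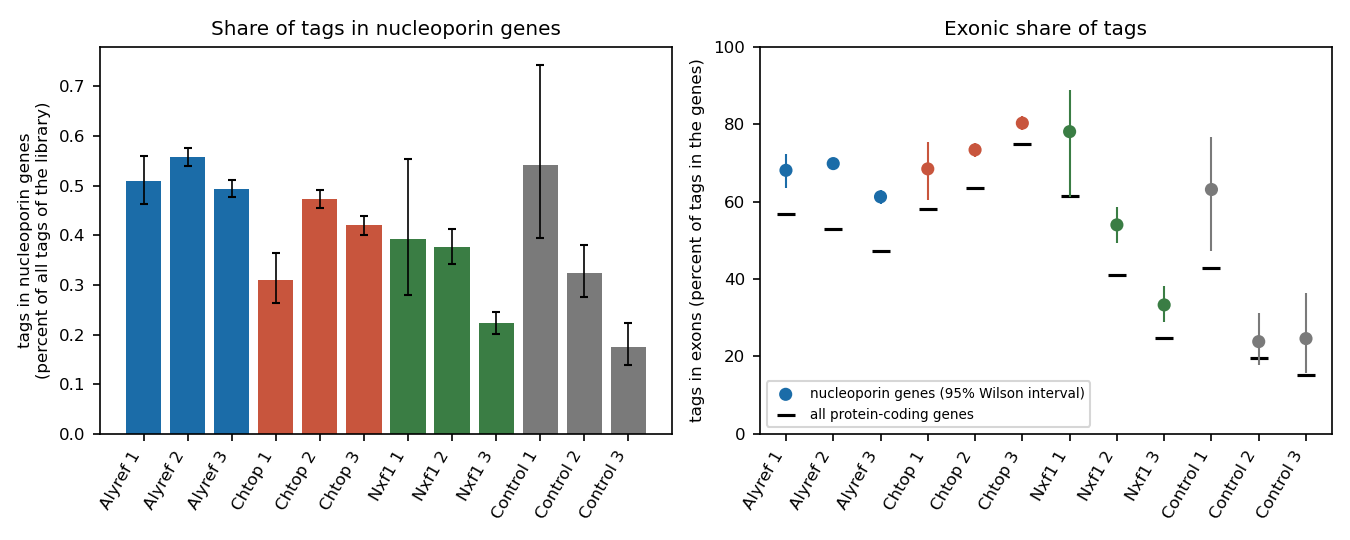
Left, bars give the tags in nucleoporin genes as a percent of all tags of each library with 95% Wilson intervals; right, points give the exonic percent of those tags with 95% Wilson intervals and dashes the same percent over all protein-coding genes. The Alyref libraries sit at 0.494% to 0.558%, and the exonic percent of the nucleoporin genes lies above the dash in all 12 libraries.

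The tags of the nucleoporin genes were mostly exonic in the Alyref and Chtop libraries. The exonic share of member tags was 68.1%, 69.9% and 61.3% in the Alyref libraries and 68.5%, 73.4% and 80.3% in the Chtop libraries. It was 78.1%, 54.0% and 33.3% in Nxf1 and 63.2%, 23.8% and 24.6% in Control, where the first value of each rests on 32 and 38 tags. In all 12 libraries the share exceeded that over all protein-coding genes of the same library, which averaged 52.3% ± 4.8 in Alyref, 65.5% ± 8.5 in Chtop, 42.4% ± 18.3 in Nxf1 and 26.0% ± 14.8 in Control. The 2 deeper Control libraries stood lowest and Chtop 3 highest, and the Nxf1 libraries spread over the whole range between them.

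The scaffold genes, of the Y complex and the inner ring, carried the most tags in Alyref, in Nxf1 and in Control. In Chtop the inner ring was highest as well, close to the nuclear basket. Such sums grow with the number of genes. The 9 genes of the Y complex, the outer scaffold, summed to 1199 ± 67 CPM in Alyref against 691 ± 152 in Chtop and 618 ± 235 in Nxf1, with 948 ± 713 in Control. The 5 inner ring genes summed to 1256 ± 119 CPM in Alyref, 828 ± 147 in Chtop and 900.4 ± 415 in Nxf1, with 916 ± 690 in Control. The 3 nuclear basket genes went the other way in mean, with 788 ± 74 CPM in Alyref and 820.3 ± 194 in Chtop, a difference smaller than the spread between libraries. On the scale of tags per kb of exon, which allows genes to be compared, the basket genes were the densest group in Chtop at 32.6 ± 7.2 CPM per kb and the inner ring the densest in Alyref at 31.9 ± 3.8. The cytoplasmic side was the least dense in Alyref, at 15.1 ± 1.9 CPM per kb, and the Y complex the least dense in Chtop, at 12.5 ± 2.9. Control held 5.64 ± 1.55 CPM per kb on the basket and 13.8 ± 14.8 on the Y complex, the latter with a spread as large as its mean.

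**Figure D2:**
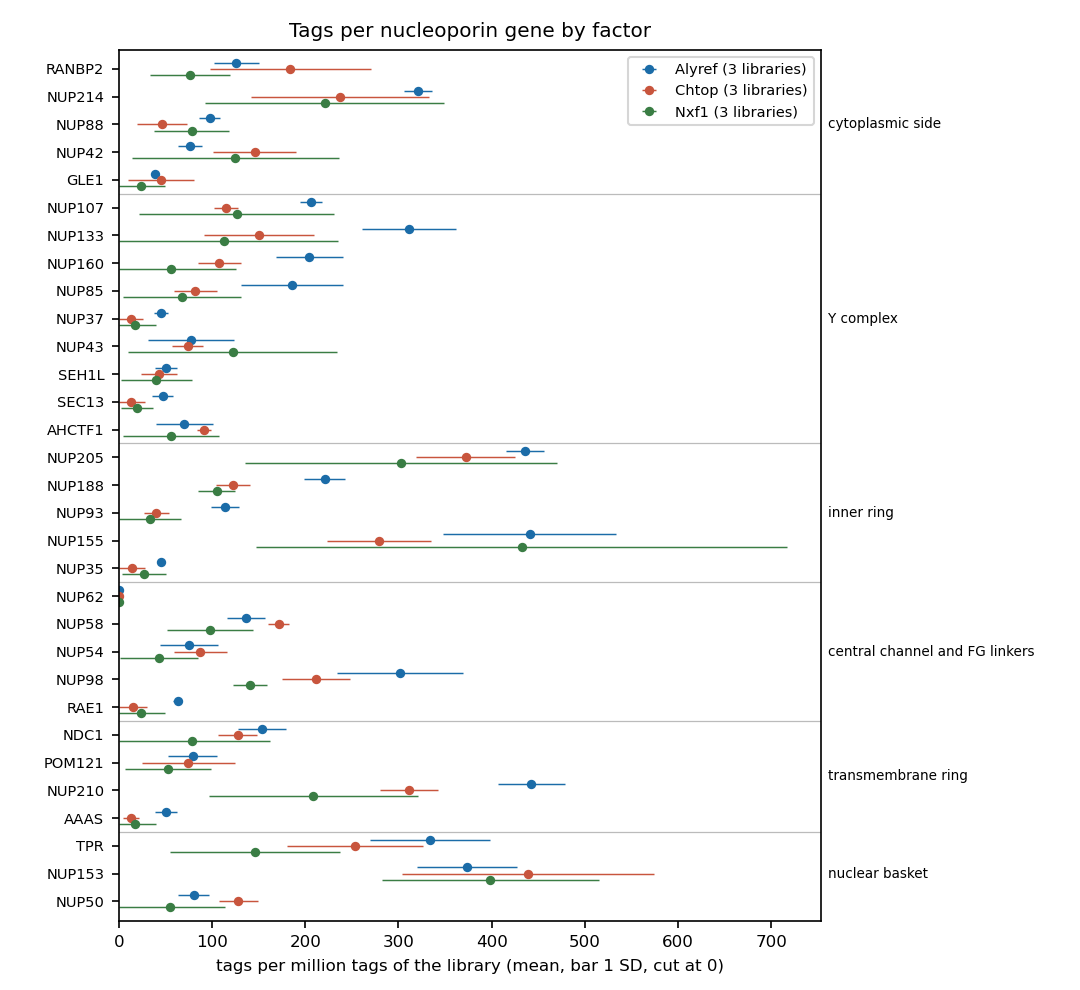
Mean CPM of each of the 31 nucleoporin genes in the Alyref, Chtop and Nxf1 groups, with bars of 1 SD over 3 libraries, ordered by place in the pore. The highest means are those of NUP205, NUP155, NUP210 and NUP153, with NUP205 at 436 CPM in Alyref and NUP153 at 439 CPM in Chtop, and NUP62 stands at 0 because all its tags are shared with other genes.

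Single members spanned a wide range per length. In Alyref the exonic level ran from 3.91 CPM per kb for AHCTF1, a Y complex partner that binds chromatin, to 53.7 for NUP205, an inner ring scaffold, with NUP85 of the Y complex next at 49.7. In Chtop it ran from 1.54 for NUP93, an inner ring linker, to 69.95 for NUP42, a cytoplasmic partner of the export factor GLE1, with NUP153 of the basket next at 59.3. In Nxf1 the highest mean, 59.3 for NUP42, came from 6 exonic tags, which were 246 CPM in the shallowest library, 33.6 in the second and 0 in the third. NUP155 and NUP153 followed in Nxf1 at 42.4 and 38.5 CPM per kb, from 60 and 47 exonic tags. NUP42 thus stood near the top in Chtop and Nxf1 and in the middle of the range in Alyref, at 25.9, while NUP205 was high in every factor.

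The 5 members with the highest mean level over the factor libraries were NUP153 (chr6:17615266-17707156), NUP155 (chr5:37288239-37371208), NUP205 (chr7:135242665-135333505), NUP210 (chr3:13357735-13461822) and NUP214 (chr9:134000960-134110050), on GRCh37. NUP153 had 357, 434 and 329.9 CPM in Alyref, 298, 568 and 452 in Chtop, 492, 436 and 268 in Nxf1 and 143, 236 and 108 in Control. All 3 factor groups lay above all Control libraries for NUP153, whose Control values come from 1, 11 and 4 tags. Choosing members by their level in the factor libraries favours such a difference, and how many genes show it was not counted. NUP205 had 443, 451 and 413 CPM in Alyref, 319, 425 and 373 in Chtop, 492, 243 and 173 in Nxf1 and 570.0, 85.8 and 135 in Control, where the first Control value comes from 4 tags. NUP155 had 344, 530.3 and 448 CPM in Alyref and 234, 342 and 263 in Chtop, so the highest Chtop library came close to the lowest Alyref library without reaching it. Its Nxf1 libraries had 738, 386 and 173 CPM and its Control libraries 570.0, 257 and 189, ranges that took in every Alyref and Chtop value. NUP210, a membrane glycoprotein of the pore, had 443, 478 and 406 CPM in Alyref and 276, 336 and 321 in Chtop, with no overlap, beside 123, 336 and 167 in Nxf1 and 285, 172 and 189 in Control. NUP214, an FG protein of the cytoplasmic filaments, had 308, 337 and 318 CPM in Alyref and 128, 304 and 279 in Chtop, again with no overlap, beside 369, 143 and 151 in Nxf1 and 285, 150.1 and 243 in Control.

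Against Control, 19 of the 31 members had enough tags for a test among 3240 genes. The filter on low counts asked for enough tags in any 3 libraries, so a gene could enter through a group where it was high. The other fits with this filter share that limit, and calls on such genes are not independent of it. In Alyref against Control 0 members passed an adjusted p of 0.05 in edgeR's quasi-likelihood test, where 0.123% of all genes did. At an unadjusted p under 0.05 there were 5 members, and DESeq2 also called 0. The median log2 fold change of the 19 members was 0.59 beside 0.15 for all genes, and 17 of them lay above 0. In Chtop against Control 1 member passed, NUP153, while 14.6% of all genes did and 9.04% were higher in Chtop. NUP153, which anchors transport factors at the basket, was higher in Chtop by 1.37 on the log2 scale (SE 0.44, adjusted p = 0.0362). The median of the members was 0.53 beside 0.16 for all genes. The NUP153 call was lost in DESeq2 (adjusted p = 0.0877), whose calls over all genes were 78 higher and 121 lower where edgeR gave 293 and 181, and it was lost without Chtop 2 (adjusted p = 0.0598), Chtop 3 (0.0655), Control 1 (0.0698) or Control 3 (0.131). Without Alyref 1, Control 2 or any one Nxf1 library 2 members were called. In Nxf1 against Control 0 members passed, beside 0.0309% of all genes, with 1 member at an unadjusted p under 0.05 and 0 in DESeq2. The member median was 0.15 and that of all genes 0.09. These 3 comparisons share the Control libraries, whose 254 member tags limit them.

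Between Alyref and Chtop, the scaffold gene NUP85 was higher in Alyref and the cytoplasmic genes NUP42 and RANBP2 were higher in Chtop. These 3 of 19 members passed, beside 15.7% of all genes, with 1 higher in Alyref beside 5.9% of all genes and 2 lower beside 9.85%. The Y complex subunit NUP85 (chr17:73201754-73231853, plus strand) had 123, 225 and 209 CPM in Alyref and 63.8, 108 and 74.5 in Chtop. Every Alyref library of NUP85 exceeded every Chtop library, and the log2 fold change was 1.07 (SE 0.29, adjusted p = 0.0106). NUP42 (chr7:23221460-23240630, plus strand) had 86.1, 80.7 and 61.3 CPM in Alyref and 106, 137 and 193 in Chtop. All Chtop libraries of NUP42 were the higher, by a log2 fold change of -1.23 (SE 0.335, adjusted p = 0.0106). NUP42 passed the filter on low counts through its Chtop libraries, so its call is not independent of that filter. RANBP2 (chr2:109335938-109402266, plus strand), the large Ran-binding protein of the cytoplasmic filaments, had 98.4, 144 and 136 CPM in Alyref and 85.0, 243 and 224 in Chtop. The RANBP2 ranges overlapped through the shallowest Chtop library, and the log2 fold change was -0.78 (SE 0.27, adjusted p = 0.0412). RANBP2 shares sequence with the RGPD genes on the same chromosome, so its uniquely mapped tags are uncertain.

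Those 3 calls rested on the deeper libraries. DESeq2 called none of them, with adjusted p = 0.156 for NUP85, 0.267 for NUP42 and 0.365 for RANBP2, and over all genes it called 19 higher and 53 lower where edgeR called 191 and 319. All 3 were lost without Alyref 2 (adjusted p 0.181, 0.148 and 0.282) and without Alyref 3 (0.167, 0.221 and 0.27). NUP85 was also lost without Chtop 3 (0.0952), and RANBP2 without Alyref 1 (0.0774), Chtop 2 (0.082), Chtop 3 (0.107) or Control 2 (0.0513). The other 16 members tested did not pass. The nearest were NUP107 (log2 fold change 0.79, adjusted p = 0.0644), NUP188 (0.72, adjusted p = 0.0696) and NUP133 (0.75, adjusted p = 0.0955).

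Counting exons alone, more members differed between the adaptors. Of 11 members tested among 722 genes, 8 were higher in Alyref relative to the exonic tags of the other genes and 0 were lower, beside 43.4% of all genes called and 24.8% called higher in Alyref. The member median was 0.59 on the log2 scale beside 0.05 for all genes. NUP107 (chr12:69080731-69139589, plus strand), a stalk subunit of the Y complex, had 172, 169 and 146 exonic CPM in Alyref and 85.0, 65.0 and 88.5 in Chtop. No Chtop library of NUP107 reached an Alyref one (log2 fold change 1.59, SE 0.30, adjusted p = 2.28e-06). NUP188 (chr9:131709978-131769375, plus strand), an inner ring scaffold related to NUP205, had 159.9, 206 and 174 exonic CPM in Alyref and 63.8, 121 and 95.4 in Chtop. The groups did not overlap for NUP188 (log2 fold change 1.345, SE 0.25, adjusted p = 1.34e-06), although 8.60% of all its tags lay in a second gene and were left out. NUP107 and NUP188 passed the filter on low exonic counts through their Alyref libraries, so their calls are not independent of that filter. Here and elsewhere, how many of all genes tested show no overlap between groups was not counted. Overlap is read in CPM of all tags, whereas the exonic calls are relative to exonic tags.

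NUP155 had 308, 427 and 329.9 exonic CPM in Alyref and 213, 273 and 235 in Chtop, with no overlap and a log2 fold change of 1.07 (SE 0.21, adjusted p = 3.07e-06). NUP133 (chr1:229576006-229644088, minus strand), which tethers the Y complex to membrane, had 246, 204 and 194 exonic CPM in Alyref and 63.8, 159.6 and 149 in Chtop, again with no overlap (log2 fold change 1.00, SE 0.23, adjusted p = 8.88e-05). These 4 scaffold genes kept their calls in DESeq2 and without each library in turn. The other 4 differed less and overlapped between groups. They were NUP205, at a log2 fold change of 0.60 (SE 0.20, adjusted p = 0.00857), and TPR, the filament of the basket (chr1:186280784-186344825, minus strand), at 0.59 (SE 0.20, adjusted p = 0.0111). NUP210 stood at 0.59 (SE 0.20, adjusted p = 0.0128) and NUP98 (chr11:3692313-3819022, minus strand), a mobile FG protein, at 0.56 (SE 0.235, adjusted p = 0.0416). DESeq2 called none of these 4, with adjusted p = 0.0896, 0.0905, 0.187 and 0.269. NUP205 lost its call without Alyref 2 (adjusted p = 0.125), Alyref 3 (0.183) or Chtop 3 (0.163), TPR and NUP210 lost theirs without any one Chtop library, among others, and NUP98 kept its call only without Control 1.

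The exonic values behind those weaker calls were 332, 356 and 319.9 CPM in Alyref against 276, 349 and 296 in Chtop for NUP205. TPR had 308, 266 and 222 in Alyref against 149, 241 and 261 in Chtop. NUP210 had 308, 291 and 172 in Alyref and 170.0, 230.1 and 242 in Chtop, and NUP98 had 209, 222 and 109 in Alyref and 106, 169 and 172 in Chtop. In these genes a deeper Chtop library reached into the Alyref range. The number of members called fell to 4 without Alyref 2 or without Chtop 3, and to 5 without Alyref 1, Alyref 3 or Chtop 2. NUP153 and RANBP2 were the 2 tested members with a negative exonic fold change, of -0.23 and -0.32, and neither passed (adjusted p = 0.368 and 0.32). NUP85 and NUP42 did not pass the filter on low exonic counts. The exonic tags were 84 and 67 against 19 and 17 for NUP85 and 25 and 20 against 58 and 68 for NUP42 in the deeper Alyref and Chtop libraries.

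**Figure D3:**
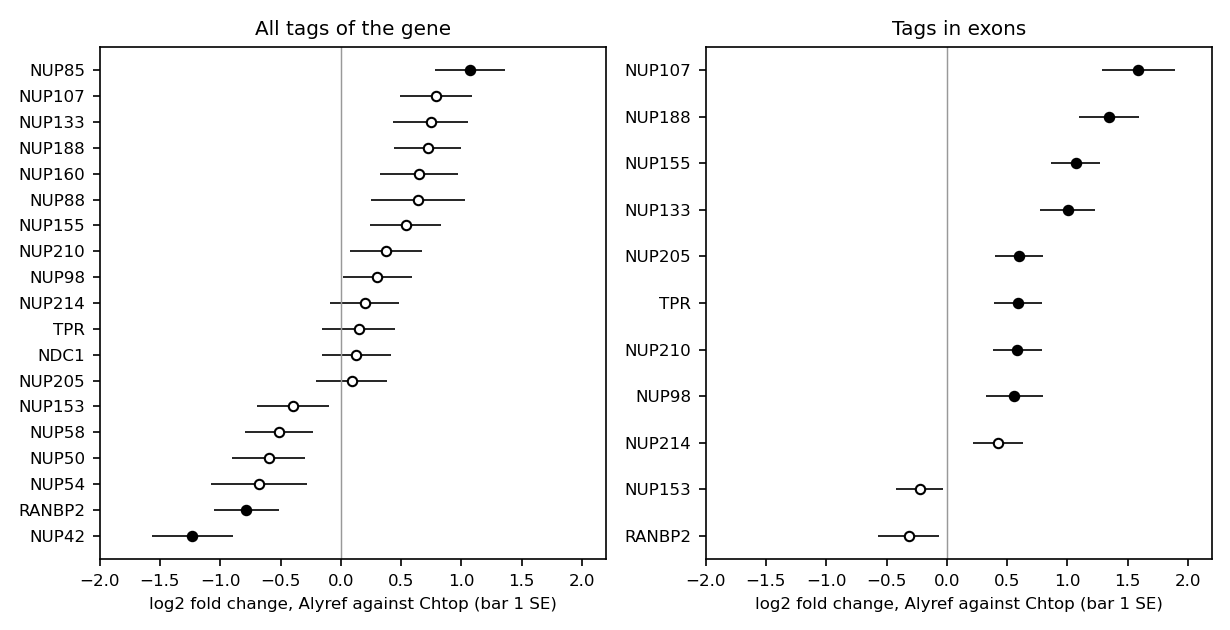
Log2 fold change of Alyref against Chtop with bars of 1 SE, for all tags of the gene in 19 members (left) and for exonic tags in 11 members (right), where filled points have an adjusted p under 0.05. NUP85 lies highest at 1.07 and NUP42 lowest at -1.23 on the left, and 8 points on the right are filled, from NUP98 at 0.56 to NUP107 at 1.59.

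TPR and NUP50 of the basket and RANBP2 of the cytoplasmic filaments were lower in Nxf1 than in one or both adaptors. In Alyref against Nxf1, 1 of 19 members passed, TPR, beside 4.75% of all genes and 2.96% higher in Alyref. TPR had 406, 313 and 282 CPM in Alyref and 246, 126 and 66.9 in Nxf1. The groups did not overlap for TPR (log2 fold change 1.45, SE 0.40, adjusted p = 0.0293). Its call was lost in DESeq2 (adjusted p = 0.172), with no low-count filter (0.0648) and without Alyref 2 (0.119), Alyref 3 (0.0751), Nxf1 2 (0.0933) or Nxf1 3 (0.346). The member median was 0.74 beside 0.02 for all genes, and 11 members had an unadjusted p under 0.05.

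In Chtop against Nxf1, 3 of 19 members passed, all higher in Chtop, beside 25.8% of all genes in either direction and 15.4% higher in Chtop. NUP50 (chr22:45559806-45583898, plus strand), a basket protein that helps importins release cargo, had 149, 128 and 107 CPM in Chtop and 123, 25.2 and 16.7 in Nxf1. The Nxf1 values of NUP50 come from 1, 3 and 3 tags, and the shallow first library overlapped the Chtop range (log2 fold change 2.15, SE 0.53, adjusted p = 0.00376). NUP50 passed the filter on low counts through its Chtop libraries, so its call is not independent of that filter. RANBP2 had 123, 67.1 and 39.0 CPM in Nxf1, from 16 tags in all, and was higher in Chtop by 1.80 on the log2 scale (SE 0.40, adjusted p = 0.00169), with overlap through the shallowest Chtop library. TPR, at 170.0, 306 and 284 CPM in Chtop, was higher by 1.31 (SE 0.40, adjusted p = 0.017), and the groups overlapped. DESeq2 kept RANBP2 and NUP50 (adjusted p = 0.04 for each) and not TPR (0.108). All 3 calls were lost without Nxf1 3, with adjusted p of 0.0928 for NUP50, 0.0604 for RANBP2 and 0.198 for TPR. The comparisons with Nxf1 share its libraries, and the values of each are given side by side only.

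Counting exons alone, NUP155 was the one member that passed against Nxf1. In Alyref against Nxf1 0 of 11 members passed, beside 29.6% of all genes, with 2 at an unadjusted p under 0.05 and 0 in DESeq2. Leaving out Chtop 1, Nxf1 1 or any one Control library raised this to between 2 and 4 members. In Chtop against Nxf1 1 member passed, NUP155, beside 31.7% of all genes. Its exonic level was 615, 310.4 and 100.4 CPM in Nxf1, and relative to the other exonic tags it was lower in Chtop by a log2 fold change of -1.425 (SE 0.30, adjusted p = 2.11e-05). The CPM of NUP155 overlapped between the groups, and the exonic share of member tags fell in the same order over the Nxf1 libraries, a part in the result that was not tested. The call held in DESeq2 and was lost with no low-count filter (-0.58, adjusted p = 0.341) and without Nxf1 2 (-0.97, adjusted p = 0.0952), and 2 members were called without Nxf1 3, Control 1 or Control 2. Over all genes the split of exonic calls in Chtop against Nxf1 was 92 higher and 137 lower in edgeR and 35 and 138 in DESeq2, and in Alyref against Nxf1 it was 87 and 127 against 34 and 125. Against Control, 0 of 11 members passed in exonic tags for each factor, beside 0.277%, 3.6% and 0.139% of all genes for Alyref, Chtop and Nxf1, the calls for Chtop being 2.22% higher and 1.39% lower. At an unadjusted p under 0.05 there were 3, 1 and 2 members, respectively, and 0 in DESeq2 each time. Without Chtop 1 the count became 1 for Alyref and 2 for Chtop, and without Nxf1 1 it became 1 for each of them.

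Within libraries, exonic tags of a member were set against its own intronic tags, which removes the level of the gene. In Chtop against Nxf1, 8 of 16 members tested had a higher exon to intron ratio in Chtop and 0 a lower one, beside 50.9% of 2304 genes. The genes were NDC1 and NUP210 of the membrane ring, NUP133, NUP98, NUP58 of the central channel, NUP153, NUP205 and NUP214. Their differences ran from 1.92 for NUP210 (SE 0.83, adjusted p = 0.043) to 3.28 for NUP58 (SE 1.096, adjusted p = 0.0106), while the median over all genes was 2.435 and over the members 1.88. The fitted differences of the 16 members ranged from 1.09 to 3.28, on both sides of the median of all genes. With exonic and intronic columns scaled apart, the median over all genes became 0.11, the members' median -0.42, and 0 members were called. Without Nxf1 3 none of the 8 was called, and without Alyref 2 or Chtop 3 there were 4.

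In Alyref against Chtop 0 of 16 members passed in this ratio, beside 0.825% of all genes, with 2 at an unadjusted p under 0.05. The member median was -0.82 and that of all genes -1.11. With the columns scaled apart these became 0.355 and 0.08, and NUP107 and NUP85, both of the Y complex, were called higher in Alyref. In Alyref against Nxf1 0 members passed, beside 4.56% of all genes, with 4 at an unadjusted p under 0.05 and medians of 1.34 for members and 1.29 for all genes. DESeq2 was not run on these ratios.

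Tags were unevenly spread over the exons of the members. In Alyref the first exons held 37.6 ± 4.6 CPM per kb and the middle exons shorter than 100 nt held 34.7 ± 5.8, while the last exons held 10.3 ± 1.9. In Chtop the first exons held 24.6 ± 10.0 CPM per kb, the short middle exons 15.0 ± 5.8 and the last exons 18.2 ± 6.1. In the short middle exons the Alyref libraries gave 31.6, 41.4 and 31.03 CPM per kb and the Chtop libraries 8.41, 19.6 and 16.9, so the groups were apart. Middle exons of 100 nt or more held 27.97 ± 3.93 CPM per kb in Alyref, 21.6 ± 3.7 in Chtop and 14.4 ± 8.1 in Nxf1. Over all protein-coding genes, many of them with few tags, the corresponding densities in short middle exons were 11.7 ± 1.2 in Alyref and 5.09 ± 0.26 in Chtop, and in last exons 3.27 ± 0.17 and 6.495 ± 1.708. Control held 5.58 ± 9.67 CPM per kb in first exons and 25.3 ± 35.2 in short middle exons, from 5 and 14 tags. The 3′ UTRs, 31.3% of exonic length, took 12.7% ± 1.8 of exonic member tags in Alyref, 25.9% ± 3.4 in Chtop, 22.8% ± 4.6 in Nxf1 and 15.7% ± 5.6 in Control.

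**Figure D4:**
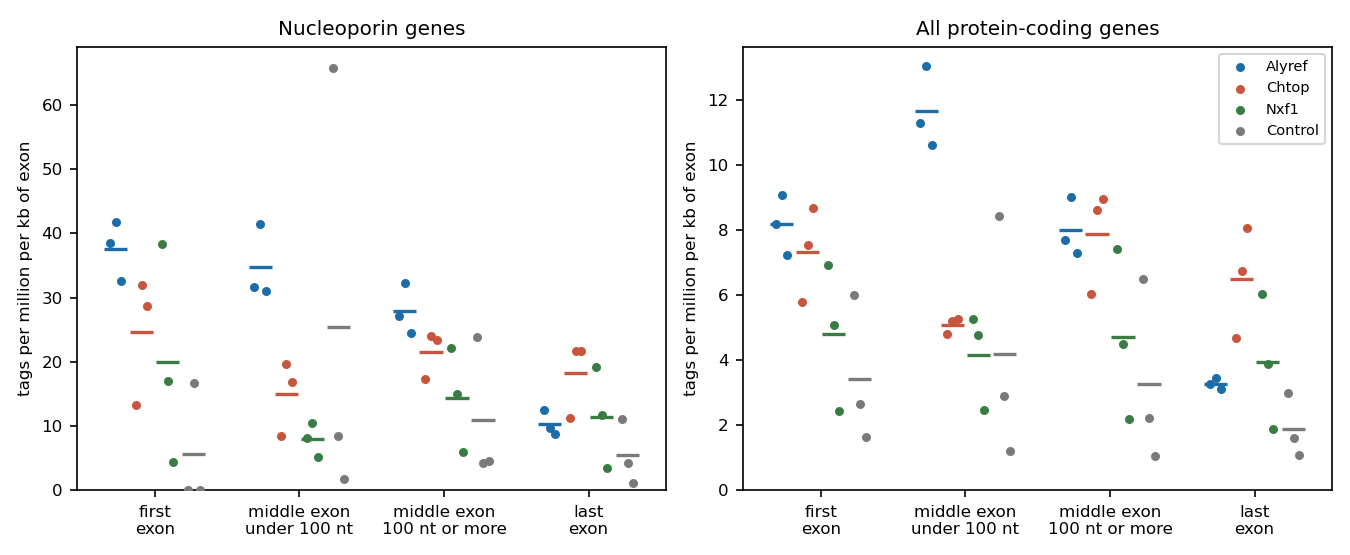
CPM per kb in first, short middle, long middle and last exons of the nucleoporin genes (left) and of all protein-coding genes (right), with 1 point per library and a bar at the group mean; the vertical scales differ. In last exons of nucleoporin genes Chtop averages 18.2 against 10.3 in Alyref, and in short middle exons Alyref averages 34.7 against 15.0 in Chtop, while 1 Control point, from the shallowest library, lies above all others there.

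Tags of the members were also counted by their distance from the 3′ ends of exons of at least 100 nt, first exons included and last exons left out. Of the tags in the last 100 nt of such exons, 56.9% of 1987 in Alyref lay 24 to 75 nt before the exon end (95% Wilson interval 54.7% to 59.0%), where an even spread would give 52%, a value below that interval. The share was 52.3% of 950 in Chtop (49.1% to 55.5%), 56.5% of 138 in Nxf1 (48.2% to 64.5%) and 21 of 28 tags in Control, an interval of 56.6% to 87.3%. The Control interval lay above an even spread and above the Chtop and Nxf1 values, and took in the Alyref value.

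Last exons of the members carried more of the Chtop tags than of the Alyref tags. Set against the other exons of the same gene in the same library, the last exon held fewer tags in Alyref than in Chtop in 6 of 10 members tested and more in 0, beside 54.3% of 506 genes called, 53.2% lower and 1.19% higher. The members were NUP107 (log2 ratio difference -2.22, SE 0.64, adjusted p = 0.00184), NUP214 (-1.87, SE 0.65, adjusted p = 0.00955), NUP133 (-1.79, SE 0.48, adjusted p = 0.000744), NUP155 (-1.45, SE 0.34, adjusted p = 9.05e-05), NUP98 (-1.42, SE 0.54, adjusted p = 0.0188) and NUP210 (-1.14, SE 0.38, adjusted p = 0.00666). The member median was -1.33 and that of all genes -1.14, close to each other. NUP155 and NUP133 kept their calls without each library in turn, and the count fell to 3 without Alyref 2, Chtop 2 or Chtop 3. This ratio was added after the data had been seen.

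Shares of tags by gene give the values behind the ratio. In NDC1, which anchors the ring in the membrane, the last exon took 36 of 154 exonic tags in Alyref, or 23.4% (95% Wilson interval 17.4% to 30.7%), and 69 of 114 in Chtop, or 60.5% (51.4% to 69.0%). In NUP58 it took 46.5% of 86 tags in Alyref and 83.2% of 107 in Chtop, and in NUP54, its partner in the central channel, 40.4% of 52 and 79.5% of 73. In NUP107, where the last exon makes up 55.6% of the length, it took 8.13% of 209 tags in Alyref and 29.9% of 77 in Chtop. Among the 18 members with at least 50 exonic tags in both groups, the share was higher in Chtop in 18, beside 88.6% of all protein-coding genes under the same rule. Over all 30 members with exonic tags it was higher in 28, beside 73.3% of all genes. The exceptions were NUP88, with 12 of 72 tags in Alyref and 1 of 32 in Chtop, and SEH1L, with 9 of 30 and 6 of 21.

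**Figure D5:**
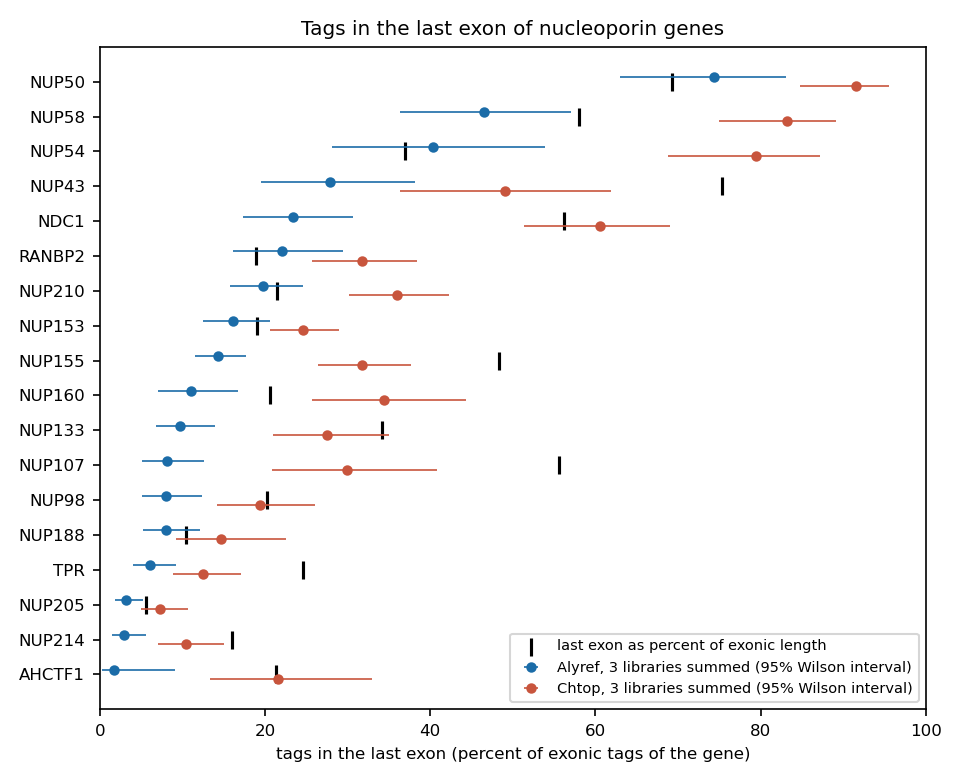
Percent of the exonic tags of a gene that lie in its last exon, with the 3 libraries of Alyref or of Chtop summed and 95% Wilson intervals of counting error, for the 18 nucleoporin genes with at least 50 exonic tags in both groups; vertical marks give the last exon as a percent of exonic length. The Chtop point lies to the right of the Alyref point in all 18 genes, from 7.32% against 3.15% in NUP205 to 91.6% against 74.3% in NUP50.

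In Alyref against Nxf1 the last exon of 1 of 10 members was lower, NUP155 (-1.87, SE 0.53, adjusted p = 0.0104), beside 9.49% of all genes. Its last exon held 14.4% of 494 exonic tags in Alyref and 38.3% of 60 in Nxf1 (95% Wilson interval 27.1% to 51.0%). The call was lost without Alyref 2 (adjusted p = 0.104), Nxf1 2 (0.224) or Nxf1 3 (0.124). In Chtop against Nxf1 0 of 10 members passed, beside 6.13% of all genes, with 0 at an unadjusted p under 0.05.

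Single exons and introns were mostly too sparse to test. Of 680 canonical exons of the members 647 had a tag and 23 had at least 50, and of 650 introns 504 had a tag and 8 had at least 50. The usual filter on low counts left 0 of them, so the 31 exons and introns with at least 50 tags were fitted with 6127 such pieces of all genes, a setting added after the data had been seen. The 50 tags were summed over all libraries, so a piece could enter through the group in which it was high. Of the 51 tags in intron 1 of NUP153, 32 came from Alyref, and of the 138 in the last exon of NUP42, 105 came from Chtop. The calls on such pieces are therefore not independent of that choice. In Alyref against Chtop 3 of the 31 passed, beside 19.2% of all pieces, 16% higher and 3.12% lower in Alyref. The last exon of NUP42 (exon 7, chr7:23239787-23240625), with 3, 14 and 11 tags in Alyref and 3, 47 and 55 in Chtop, was lower in Alyref (log2 fold change -1.57, SE 0.58, adjusted p = 0.041). Intron 1 of NUP153, with 2, 16 and 14 tags in Alyref and 0, 9 and 1 in Chtop, was higher in Alyref (1.89, SE 0.64, adjusted p = 0.0288). Intron 11 of NUP153, with 3, 19 and 26 against 2, 10 and 5 tags, was higher too (1.66, SE 0.62, adjusted p = 0.0425). Exons 1, 16, 18, 19 and 22 of the same gene had fold changes between -0.96 and -0.27, none of which passed, so introns and exons of NUP153 lay on opposite sides of 0. This is not particular to NUP153, since the exon to intron ratio over all genes was also lower in Alyref (median -1.11). The other member introns fitted ran from -0.305 in NUP58 to 1.53 in NUP98, and none of them passed.

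In Chtop against Nxf1 6 of the 31 passed, all higher in Chtop, beside 29.4% of all pieces and 21.6% higher. These were the last exons of NUP42 (2.57, SE 0.83, adjusted p = 0.0154), NUP54 (2.80, SE 0.97, adjusted p = 0.0234), NUP50 (2.23, SE 0.81, adjusted p = 0.0287), NUP58 (2.08, SE 0.79, adjusted p = 0.0357) and NUP153 (1.93, SE 0.775, adjusted p = 0.0451), and exon 29 of NUP214 (2.29, SE 0.83, adjusted p = 0.0284). That middle exon of NUP214 is 1800 nt long and had 3, 25 and 14 tags in Alyref, 0, 45 and 43 in Chtop and 1, 1 and 2 in Nxf1. The most tagged piece of any member, the last exon of NUP155 with 178 tags, passed between no pair of factors, and stood at -0.22 in Chtop against Nxf1 (SE 0.66, adjusted p = 0.797). In Alyref against Nxf1 0 of the 31 passed, beside 2.32% of all pieces, with 2 at an unadjusted p under 0.05. DESeq2 was not run on these pieces, nor were libraries left out at this setting.

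The other 12 members did not pass the filter on low counts for all tags. Among them NUP62 had no tag of its own, and the others were AHCTF1, AAAS, NUP37, NUP93, SEH1L, NUP35, RAE1, SEC13, NUP43, POM121 and GLE1. Their levels in Alyref ran from 38.7 ± 3.5 CPM for GLE1, an activator of the export helicase at the cytoplasmic face, to 114 ± 15 for NUP93. RAE1, an mRNA export factor that binds NUP98, had 63.1 ± 4.4 CPM in Alyref, 15.3 ± 14.9 in Chtop and 24.2 ± 25.2 in Nxf1. NUP35, SEC13, NUP37 and AAAS likewise stood at 45.2 to 50.6 CPM in Alyref and at 13.0 to 13.9 in Chtop, whereas GLE1, POM121 and SEH1L lay within 1 SD of each other in both groups. The Chtop means of RAE1, NUP35, SEC13 and NUP37 include 0 tags in Chtop 1, which still allowed up to 63.8 CPM in that library. POM121 shares sequence with POM121C, and 3.54% of its tags lay in a second gene, so its values are uncertain.

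Genes of transport through the pore gave a comparison list. Of 24 transport receptors 18 were tested for all tags, and 0 or 1 passed in each direction in every comparison. CSE1L, the exporter that returns importin alpha, was higher in Alyref than in Chtop (log2 fold change 1.23, SE 0.29, adjusted p = 0.00331), and TNPO2, an importin of RNA-binding proteins, was higher in Alyref than in Nxf1 (1.43, SE 0.37, adjusted p = 0.0226). In exonic tags 8 of 11 receptors tested were higher in Alyref than in Chtop and 0 lower, beside 24.8% of all genes higher and 18.6% lower. Their median was 0.68, close to the 0.59 of the nucleoporin genes, beside 0.05 for all genes. In the last exon ratio 10 of 10 were lower in Alyref, beside 53.2% of all genes, with a median of -1.41 beside -1.14 for all genes. Of 6 Ran cycle genes 3 were tested for all tags, and RANBP3 was lower in Chtop than in Nxf1 (-1.17, SE 0.37, adjusted p = 0.0203). Of 8 genes for mRNA export at the pore 3 were tested. MCM3AP, which encodes the export scaffold GANP, was higher in Chtop than in Control (1.91, SE 0.47, adjusted p = 0.00822) and than in Nxf1 (1.055, SE 0.35, adjusted p = 0.0269). NXF1 itself was lower in Alyref (-1.20, SE 0.34, adjusted p = 0.0339) and in Chtop (-1.89, SE 0.37, adjusted p = 0.00051) than in the libraries from the Nxf1 transgene line.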

How the data were processed

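The deposited values are counts, the number of deduplicated reads (tags) at each crosslinked base and strand, 1 file per library. The authors extracted random barcodes with UMI-tools 0.5.3, removed phiX reads with Bowtie 1.1.2, aligned to hg19 with STAR 2.4.2a, kept reads with a unique position, joined the lanes of a library and collapsed duplicates by barcode. Unique mapping lowers counts in genes with copies. Pooled files repeat these counts and were not used, and 0 columns of per-sample values were left unused. Tags were assigned by strand to GENCODE release 44 on GRCh37, with exons of the canonical transcript. Tags in several genes (5.97% to 8.32% of a library) were left out. Tests used edgeR 4.0.16 in R 4.3.3 (quasi-likelihood, TMM, filterByExpr, Benjamini-Hochberg over all genes tested) on all 12 libraries, with DESeq2 1.42.0 as an alternative. Exon to intron and last exon ratios were fitted within library with 1 library size. The fits of all tags and of exonic tags were also run on simulated counts, as was the exon to intron ratio with columns scaled apart. The exon to intron ratio with 1 library size, the last exon ratio and the fit of single exons and introns were not. Intervals cover counting error only, and the limit of a count of 0 is 3 counts.

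Values in every library were given for members with an adjusted p under 0.05 between factors, in all tags or in exonic tags (at most 8 each), and for the 5 members with the highest mean level. Further genes named for ratios, last exons or low levels were chosen after their values were seen. The members and lists were chosen with earlier results of these data known.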

Additional observations from a re-analysis of the deposited data

Results flagged for a closer look

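One value lay outside the counts used above. All 408 tags in the body of NUP62, which encodes an FG protein of the central channel (chr19:50410082-50433021, minus strand, GRCh37), also lie within IL4I1 or another annotated gene on that strand, so NUP62 had no tags of its own. Counted with the shared tags, the locus had 209, 120.3 and 101 CPM in Alyref, 85.0, 219 and 207 in Chtop, 246, 134 and 112 in Nxf1 and 0, 107 and 0 in Control. It stood out because the Nxf1 libraries, at 164 ± 72 CPM (SD, n = 3), all lay above the highest Control library. The Nxf1 values come from 2, 16 and 20 tags and the Control value from 5, and the 2 Control libraries without a tag allow up to 428 and 81.1 CPM.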

How the results depend on the processing

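Of 90 values of the comparisons recomputed under other settings, 74 stayed within 1.5 times, counts of 0 members that stayed 0 among them. Of 107 fold changes of called members 73 kept direction and call, 31 kept direction only and 3 turned. Those were the exon to intron differences of NUP210, NUP153 and NUP205 in Chtop against Nxf1, which became -0.43, -0.037 and -0.042 with exonic and intronic columns scaled apart. In all tags, DESeq2 called 0 members in Chtop against Control, Alyref against Chtop and Alyref against Nxf1, and no filter left 0 in the last. In exonic tags, DESeq2 called 4 in Alyref against Chtop and 2 in Chtop against Nxf1, and no filter gave 3 in Alyref against Control, 2 in Chtop against Control, 4 in Alyref against Nxf1 and 0 in Chtop against Nxf1. In the exon to intron ratio, scaling apart gave 2 in Alyref against Chtop and 0 in Chtop against Nxf1. In the last exon ratio, no filter gave 12 in Alyref against Chtop and 0 in Alyref against Nxf1. With no filter more members could be tested, and the share of all genes called was not counted, so these counts have no background beside them. The 50-tag rule gave 3 and 6 segments in Alyref against Chtop and Chtop against Nxf1, where the usual filter left 0.

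Leaving out 1 library moved the members called in all tags between 0 and 2 in Chtop against Control, 0 and 4 in Alyref against Chtop, 0 and 1 in Alyref against Nxf1 and 0 and 4 in Chtop against Nxf1. In exonic tags the ranges were 0 to 1, 0 to 2 and 0 to 0 for Alyref, Chtop and Nxf1 against Control, 4 to 8 in Alyref against Chtop, 0 to 4 in Alyref against Nxf1 and 0 to 2 in Chtop against Nxf1. They were 0 to 10 for the exon to intron ratio in Chtop against Nxf1, 3 to 7 and 0 to 1 for the last exon ratio in Alyref against Chtop and Alyref against Nxf1, and 0 to 3 and 0 to 5 for segments in Alyref against Chtop and Chtop against Nxf1, where the usual filter then kept some. The share of all tags ranged from 0.502% to 0.534% in Alyref, 0.365% to 0.446% in Chtop, 0.299% to 0.385% in Nxf1 and 0.250% to 0.433% in Control. Apart from the number of samples left, the cause of these changes was not tested.

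The replicate numbers were shared by the groups, but same-numbered libraries did not consistently deviate together (correlations -0.172 to 0.254). Some correlations exceeded the set minimum of 0.1, such as 0.254 for replicate 2 of Alyref and Chtop, and others did not, such as -0.129 for their replicate 3. The numbers were therefore not taken as pairs. With a replicate block the members called numbered 0, 1 and 0 against Control, 2 in Alyref against Chtop, 1 in Alyref against Nxf1 and 3 in Chtop against Nxf1 in all tags, and 7 in Alyref against Chtop in exonic tags. RANBP2 (adjusted p = 0.0898) in all tags and NUP98 (0.061) in exonic tags lost their calls in Alyref against Chtop under the block, and 15 of 17 single-gene calls were kept. Control depth, 7017 to 46628 tags, limits every comparison with it.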

Other observations

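Tags on the strand opposite to the nucleoporin genes, which enter no comparison, came to 172, 169 and 189 CPM in Alyref, 340.0, 180.0 and 235 in Chtop, 0, 193 and 239.8 in Nxf1 and 0, 64.3 and 270.4 in Control. Within 1 kb past the annotated ends the members had 12.3, 42.7 and 23.2 CPM in Alyref and 0, 26.0 and 9.31 in Chtop, beside 0, 8.39 and 11.2 in Nxf1 and 0, 21.5 and 0 in Control, where 1 library lay within the range of the factors.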
